A study of Mus musculus with 39 samples.

Results

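The adult α-globin genes Hba-a1 and Hba-a2 are neighbouring copies of one gene on mouse chromosome 11, and the promoter fragment of each was a viewpoint of its own in this series. The viewpoints, called Hba.1 and Hba.2, are 2 of 22 viewpoint fragments named in the files, and both were read in 21 of 39 samples. They were chosen by their names and positions and not by any measured value, and here they are kept apart and compared with each other in every sample that holds both. Next-generation (NG) Capture-C measured, for each viewpoint, how often every other DpnII fragment of the genome was ligated to it in crosslinked chromatin, so that a higher value is a more frequent contact.

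Haemoglobin of the adult mouse takes its α chains from these paralogs, which are transcribed at very high levels in maturing red cell precursors. Their expression depends on enhancers that lie upstream, in introns of the housekeeping gene Nprl3, of which R1 and R2 are the strongest. CTCF is a DNA-binding protein found at the edges of many self-interacting domains, and CTCF sites flank the α-globin cluster on both sides.

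The cells were primary erythroblasts grown from mouse foetal liver (MFL), expanded in culture and depleted of cells carrying the late erythroid marker Ter119. The labels give the strain of all groups as C57Bl6. MFL 0 h cells (3 replicates) were taken before differentiation and MFL 30 h cells (3 replicates) after 30 h in differentiation medium, and each of these 6 libraries was sequenced in a NextSeq and in a MiSeq run, which are averaged below. The double-knockout (DKO, 3 replicates) carried deletions of both R1 and R2 and was set beside wild type (WT, 3 replicates), both at 30 h. WT cells at 30 h left untreated, given the solvent DMSO, or given DRB, which blocks elongation by RNA polymerase II, were 1 library each. The DMSO and DRB exposures each lasted 3 h. BrdU was added to all cultures for their last hours. The labels call the replicates biological, and the protocols say nothing of which embryos they came from. The genes expressed in these cells were not measured by this assay, so the erythroid label could not be checked against marker genes.

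The viewpoints themselves are nearly the same sequence, and the places where they differ are shown because reads can be assigned to one copy only there. In mm9, Hba.1 is chr11:32182969-32183821, 853 bases long, and Hba.2 is chr11:32195804-32196638, 835 bases long, with starts 12835 bp apart. Both fragments run from the upstream region of their gene, on the plus strand, into its coding sequence. An alignment of the reference sequences held 832 identical bases, 3 substitutions and 18 bases present in Hba.1 alone, which is 99.64% identity over the aligned bases. The substitutions are G85A, A300T and T307C, with the Hba.1 base first and positions counted from 1 at the 5′ end of Hba.1. The bases held by Hba.1 alone are positions 335 to 352. In the first 110 bases of each fragment, the capital marks the first substitution.
Hba.1 start: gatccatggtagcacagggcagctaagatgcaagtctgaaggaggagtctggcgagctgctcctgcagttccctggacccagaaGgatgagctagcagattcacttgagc
Hba.2 start: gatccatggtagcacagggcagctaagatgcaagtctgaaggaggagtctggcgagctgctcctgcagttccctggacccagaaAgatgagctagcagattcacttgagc
In the stretch that holds the other substitutions, chr11:32183248-32183340 in Hba.1 and chr11:32196083-32196157 in Hba.2, capitals mark those bases and the run missing from Hba.2.
Hba.1 middle: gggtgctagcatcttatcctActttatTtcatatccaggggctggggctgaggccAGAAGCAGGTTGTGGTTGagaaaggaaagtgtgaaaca
Hba.2 middle: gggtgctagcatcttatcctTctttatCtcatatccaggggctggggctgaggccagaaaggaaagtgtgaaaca
The last 90 bases, chr11:32183732-32183821 and chr11:32196549-32196638, end with the DpnII site in capitals and do not differ.
Hba.1 end: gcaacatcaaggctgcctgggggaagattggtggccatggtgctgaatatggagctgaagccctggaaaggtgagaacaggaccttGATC
Hba.2 end: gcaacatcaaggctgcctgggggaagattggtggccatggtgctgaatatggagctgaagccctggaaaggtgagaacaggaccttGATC
The first 84 and the last 501 bases of the fragments are identical, so a read that reaches only an end of the fragment carries nothing that tells the paralogs apart.

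The promoters are shared as well. The 250 bases before the RefSeq start of Hba-a1 (GRCm38.p6) were found unchanged in both mm9 viewpoints. The last 150 of them are printed, with matches in capitals to CCAAT (the box of that name), to CACCC (letters found in sites of Krüppel-like factors) and to TATAA (the TATA box).
Hba-a1 promoter: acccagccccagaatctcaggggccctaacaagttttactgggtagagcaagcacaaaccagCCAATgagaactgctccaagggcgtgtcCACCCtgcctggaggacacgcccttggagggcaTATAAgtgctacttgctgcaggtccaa
Over 300 bases and both strands, each promoter held 1 CCAAT, 1 TATAA, 2 CACCC and 1 GATAA match, GATAA being the core letters of GATA factor sites. Of 32544 mouse promoters of the same length, 37.4% held CCAAT, 24.8% TATAA, 57.7% CACCC and 25.3% GATAA. These matches therefore do not set the paralogs apart from each other, and each of the 4 words occurs in many promoters.

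What differs between the paralogs is position. The R2 fragment (chr11:32151060-32151883, in an intron of Nprl3) lies 31.9 kb upstream of Hba.1 and 44.7 kb upstream of Hba.2. The R1 fragment (chr11:32145277-32146568, also intronic) lies 37.5 kb upstream of Hba.1 and 50.3 kb upstream of Hba.2. The HS39.5 fragment, a CTCF site that overlaps a coding exon of Nprl3, is 46.1 kb and 58.9 kb upstream, respectively. On the other side, the CTCF +44 fragment is 37.9 kb downstream of Hba.1 and 25.1 kb downstream of Hba.2, and the +48 fragment is 42.4 kb and 29.6 kb downstream. Both fragments of the downstream side lie outside the genes of the annotation. Hba.2 is thus the farther paralog from the enhancers and the nearer one to the downstream boundary.

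Before any contact is compared, the columns of the paralogs have to be compared with each other, since they are not independent. Of the fragments on other chromosomes that Hba.1 had been ligated to, 40.1 to 68.1% were also listed under Hba.2 of the same sample, which was 50.1 to 79.9% of the Hba.2 fragments (21 samples). The same comparison of Hba.1 with the HS39.5 viewpoint gave 0 to 1.89% (18 samples), and with the Fbxw11 viewpoint 0.51 to 0.653% (3 samples). A contact with another chromosome is rare and scattered, and in 16 of 21 samples the majority of those of Hba.1 were listed for its paralog too. On those chromosomes Hba.1 held 1.82 to 2.16 reads per listed fragment in the NextSeq runs at 0 h and 1.31 to 1.33 in those at 30 h, against 1.00 to 1.08 in all other samples. On chromosome 11 beyond 1 Mb from the viewpoints, 40.8 to 76.0% of Hba.1 fragments were listed under Hba.2. Which step of the processing placed them under both was not tested. A read counted for both paralogs moves both values alike, so every Hba.2 to Hba.1 ratio below is of partly shared reads and can understate a difference. A change between conditions that is alike from both paralogs can likewise rest on shared reads and is not 2 independent results.

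**Figure D1:**
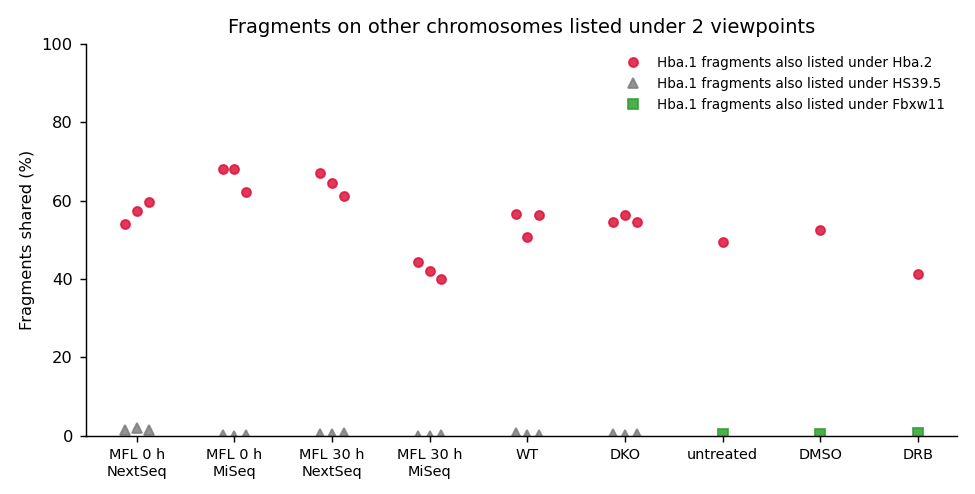
Percent of the fragments on other chromosomes listed under Hba.1 that were also listed under a second viewpoint of the same sample (y axis, %), for the 21 samples by group and run (x axis). Red circles (Hba.2) lie between 40.1 and 68.1%, while grey triangles (HS39.5, 18 samples) and green squares (Fbxw11, 3 samples) lie at or below 1.89%.

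Likeness over 2 kb bins of chromosome 11 showed the same. Across 533 bins, Spearman's rho between Hba.1 and Hba.2 of one library was 0.868 to 0.886 at 0 h, 0.793 to 0.840 at 30 h, 0.883 to 0.902 in WT and 0.881 to 0.931 in the DKO. Hba.1 of one replicate against Hba.1 of another gave only 0.366 to 0.531 at 0 h, 0.399 to 0.444 at 30 h, 0.750 to 0.770 in WT and 0.744 to 0.836 in the DKO. Each paralog was therefore more like the other paralog of its own library than like itself in another replicate. When the paralogs came from different replicates, rho was 0.370 to 0.519 at 0 h, 0.402 to 0.458 at 30 h, 0.713 to 0.778 in WT and 0.745 to 0.832 in the DKO, close to the values of one viewpoint between replicates. Among the viewpoints on chromosome 11, the paralog was in every library the most alike, ahead of HS39.5 with 0.409 to 0.791 for Hba.1. These are descriptions across bins, and both members of a pair share the library, its depth and part of its reads.

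Hba.1 held more reads than Hba.2 wherever both were counted. The excess was 1.16 to 1.27 fold in the runs at 0 h and 30 h, 1.23 in untreated cells and 1.22 in DMSO. Reporter reads per library, counted from the deposited values in the deeper run, were 20033 to 39788 for Hba.1 and 16344 to 32695 for Hba.2 at 0 h, and 7997 to 18045 and 6910 to 14677 at 30 h. The MiSeq runs, which enter the averages with equal weight, held down to 2682 reads of Hba.1 and 2287 of Hba.2 in 30 h replicate 1. The DKO held 23620 to 48792 and 23333 to 48288 reads, and WT 40479 to 52132 and 31718 to 51757. Among the WT and DKO libraries, WT replicate 2 stood apart, with 40479 reads from Hba.1 and 31718 from Hba.2 (1.28 fold). In the other WT libraries and in the DKO the paralogs were within 1000 reads of each other. The single libraries were shallower, 8759 and 7118 reads in untreated cells and 5676 and 4654 in DMSO, and 12900 from Hba.1 with DRB. The values from Hba.2 with DRB did not resolve into whole reads, so no read count is given for them.

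Contacts were summed in 8 windows and are given per kb of fragments kept, per 100000 interactions of the viewpoint on chromosome 11, with fragments within 1 kb of the 8 viewpoints on chromosome 11 read in these samples left out. The R1 and R2 fragments, which were viewpoints in other samples of the series only, were kept. Hba-a1 and Hba-a2 themselves kept no fragment, so contacts between the paralogs are not measured here. The windows were R1 and R2 (each fragment with 1 kb on both sides), the rest of Nprl3, the upstream boundary (HS39.5 with 5 kb on both sides), the downstream boundary (+44 to +48 with 5 kb on both sides), the 63.7 kb self-interacting domain, and the flank of the same length on each side of it. The domain window includes the R1 and R2 windows, most of the rest of Nprl3 and part of the upstream boundary. The other part of the upstream boundary lies in the upstream flank, and the downstream boundary lies within the downstream flank. Windows that overlap in this way do not give separate evidence.

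The nearer enhancer, R2, was the most contacted of the 8 windows from both paralogs at 0 h, at 30 h and in WT, at a level that differed little between them. In WT, Hba.1 contacted the R2 window at 1354, 1533 and 1523 per kb in replicates 1 to 3 and Hba.2 at 1280, 1472 and 1373. At 30 h the values were 1356, 1396 and 1278 from Hba.1 and 1326, 1506 and 1245 from Hba.2, and at 0 h 999, 1162 and 910 against 990, 1109 and 877. The ranges of the paralogs overlapped in every group, although Hba.2 was the lower in all WT and all 0 h libraries. Matched within the window in the deeper run, Hba.2 held 0, 0 and 0 reads beyond those of Hba.1 in WT, of 1157, 901 and 1193. At 0 h it held 19, 4 and 4 of 247, 328 and 461, and at 30 h 2, 4 and 3 of 140, 194 and 312. Most reads of Hba.2 at R2 thus had a match under Hba.1, and whether they were the same reads was not tested. Over the 12 replicated libraries the log2 ratio of Hba.2 to Hba.1 was -0.04 ± 0.06 (SD, n = 12), a decrease of 2.95%, and Hba.2 was the higher in 2 of 12 (exact sign-flip permutation test, two-sided, Benjamini-Hochberg adjusted over 8 windows, p = 0.0497). This call was lost in most of the other settings tried, with adjusted p from 0.0156 to 0.450.

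R1, the more distant of the enhancers, was contacted at a lower level than R2 from both viewpoints. In WT the R1 window held 695, 712 and 728 per kb from Hba.1 and 700.0, 717 and 709 from Hba.2. At 0 h it held 612, 481 and 638 from Hba.1 and 655, 440 and 663 from Hba.2. At 30 h Hba.2 was the higher in all 3 libraries, at 745, 594 and 702 against 647, 517 and 586. In WT the paralogs overlapped entirely, and at 0 h the replicates differed from each other by more than the paralogs did. The log2 ratio over 12 libraries was 0.09 ± 0.12 (SD), with Hba.2 higher in 10 of 12 (exact sign-flip permutation test, adjusted p = 0.0384). The call rested on the 30 h libraries, without which the ratio was 0.05, and it was lost without any one replicate number and without the DKO libraries (0.07). The adjusted p ran from 0.0091 to 0.263 over the settings.

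The rest of Nprl3, which carries no viewpoint of this pair and surrounds the enhancers, was contacted less from Hba.2. This window is the annotated gene without the R1, R2 and upstream boundary windows, so part of it lies upstream of HS39.5, outside the domain. That part overlaps Mpg, which was contacted at 164 ± 3.68 per kb from Hba.1 and 180 ± 4.12 from Hba.2 in WT (SD, n = 3). In WT the level was 635, 635 and 640.0 per kb from Hba.1 and 568, 586 and 578 from Hba.2, and the groups of values did not overlap. In the DKO it was 414, 432 and 421 from Hba.1 and 383, 406 and 392 from Hba.2. At 0 h it was 546, 542 and 524 from Hba.1 against 529, 498 and 489 from Hba.2, and at 30 h 598, 647 and 560 against 568, 651 and 536. Hba.2 was the lower in 11 of 12 libraries, the exception being 30 h replicate 2. The log2 ratio was -0.09 ± 0.05 (SD, n = 12), a decrease of 6.31% (exact sign-flip permutation test, adjusted p = 0.00195).

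Set against the rest of Nprl3, the R2 window stood out from either paralog. The R2 window was above the rest of Nprl3 by 1.90 ± 0.213 fold from Hba.1 and 1.96 ± 0.232 fold from Hba.2 at 0 h (SD, n = 3), by 2.23 ± 0.0684 and 2.32 ± 0.0094 at 30 h, and by 2.31 ± 0.154 and 2.38 ± 0.128 in WT. The R1 window was near the level of the gene around it, at 1.08 ± 0.171 and 1.16 ± 0.246 fold at 0 h, 0.976 ± 0.154 and 1.18 ± 0.229 at 30 h, and 1.12 ± 0.0215 and 1.23 ± 0.0048 in WT. In all 3 groups the mean ratio was the higher one from Hba.2 at both enhancers, and the difference exceeded the SD of both paralogs for R2 at 30 h and R1 in WT. Within libraries the ratio was the higher from Hba.2 in 11 of 12 at R2 and in 11 of 12 at R1, the DKO included, which was not tested. Without the DKO it was the higher in 8 of 9 at each. For the fragments without the 1 kb on both sides the count was 8 of 12 at R2 and 11 of 12 at R1. In the single untreated and DMSO libraries both window ratios were the higher from Hba.1, as was that of R1 with DRB. The fragments themselves, without the 1 kb on both sides, stood lower. The R2 fragment was above the rest of Nprl3 by 1.49 ± 0.0269 fold from Hba.1 and 1.51 ± 0.0650 from Hba.2 in WT, by 1.36 ± 0.181 and 1.53 ± 0.0204 at 30 h, and by 1.28 ± 0.255 and 1.35 ± 0.198 at 0 h. The R1 fragment was below it, at 0.724 ± 0.0361 and 0.754 ± 0.0186 fold in WT. The size of the R2 fold therefore depends on the window, and the R1 fragment did not stand above its surroundings. All these folds also depend on the baseline, which includes the less contacted part of Nprl3 outside the domain. They are thus higher than folds over Nprl3 within the domain would be.

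**Figure D2:**
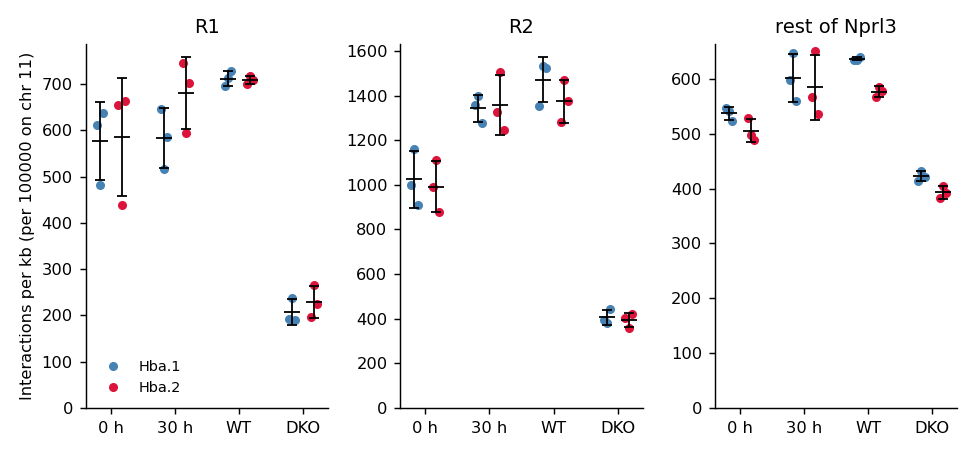
Interactions per kb per 100000 on chromosome 11 (y axis, linear from 0) in the R1, R2 and rest of Nprl3 windows for Hba.1 (blue) and Hba.2 (red) in 3 libraries of each group (x axis). Points are libraries, and bars give the mean and SD. The paralogs overlap at R1 and R2 in each group, Hba.2 lies below Hba.1 over the rest of Nprl3 in WT and DKO, and both paralogs lie lowest in the DKO.

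On the downstream side contacts were more frequent from Hba.2. The downstream flank holds only the start of Sh3pxd2b, a gene that as a whole was contacted at 8.53 per kb from Hba.1 in WT. In this flank WT gave 82.6, 99.1 and 86.3 per kb from Hba.1 and 107, 119 and 109 from Hba.2. The DKO gave 104, 112 and 111 against 125, 133 and 130. In both genotypes every Hba.2 value was above every Hba.1 value. At 0 h the values were 77.0, 81.1 and 95.7 from Hba.1 and 82.7, 90.1 and 103 from Hba.2, and at 30 h 98.1, 80.3 and 85.1 against 102, 85.4 and 107, so there the groups overlapped while each library showed the same direction. Hba.2 was the higher in 12 of 12 libraries, by a log2 ratio of 0.21 ± 0.11 (SD) or 16.0% (exact sign-flip permutation test, adjusted p = 0.00195).

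The downstream boundary around CTCF +44 and +48 behaved alike, but its window lies within the downstream flank, so it is not a separate result. WT gave 131, 160 and 125 per kb from Hba.1 and 174, 195 and 169 from Hba.2, and the DKO 152, 174 and 181 against 180, 197 and 202. At 0 h the values were 123, 125 and 173 against 142, 142 and 183, and at 30 h 182, 116 and 142 against 180.1, 149 and 196. The log2 ratio was 0.25 ± 0.15 (SD, n = 12), 18.8% higher from Hba.2, in 11 of 12 libraries (exact sign-flip permutation test, adjusted p = 0.00195), with 30 h replicate 1 as the exception. At the upstream boundary, by contrast, the paralogs were at 332 to 336 per kb from Hba.1 and 323 to 351 from Hba.2 as means of 0 h, 30 h and WT, and the log2 ratio was 0.00 ± 0.11 (SD), Hba.2 being higher in 8 of 12 (adjusted p = 0.944 by the same exact test). No difference was detectable there, and the ratio ranged from -0.21 to 0.14 between libraries. In the upstream flank, which holds Rhbdf1, Snrnp25 and Il9r, Hba.2 was higher in 11 of 12 libraries with a log2 ratio of 0.08 ± 0.07 (exact sign-flip permutation test, adjusted p = 0.00859). This call was lost without the DKO libraries (0.07, adjusted p = 0.0625 by the same exact test) and without replicate number 2 (0.07, p = 0.0625) or 3 (0.08, p = 0.075).

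Inside the domain as a whole the direction was the opposite. The share of chromosome 11 interactions in the domain was 53.6, 56.7 and 58.5% from Hba.1 and 50.1, 54.0 and 54.8% from Hba.2 in WT, and 35.3, 38.5 and 37.5% against 32.4, 35.4 and 35.0% in the DKO. At 0 h it was 41.1, 42.4 and 41.5% against 39.3, 40.1 and 39.9%, and at 30 h 55.3, 55.3 and 53.7% against 54.4, 54.1 and 51.7%. Hba.2 was the lower in 12 of 12 libraries, by -0.08 ± 0.03 on the log2 scale or 5.17% (exact sign-flip permutation test, adjusted p = 0.00195). Since values are shares of one total, more contact of Hba.2 beyond the domain and less within it are linked quantities. With the interval that holds both globin genes left out of the windows and of the total, the domain ratio was -0.16 and the rest of Nprl3 ratio -0.06, both with Hba.2 lower and past the threshold.

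**Figure D3:**
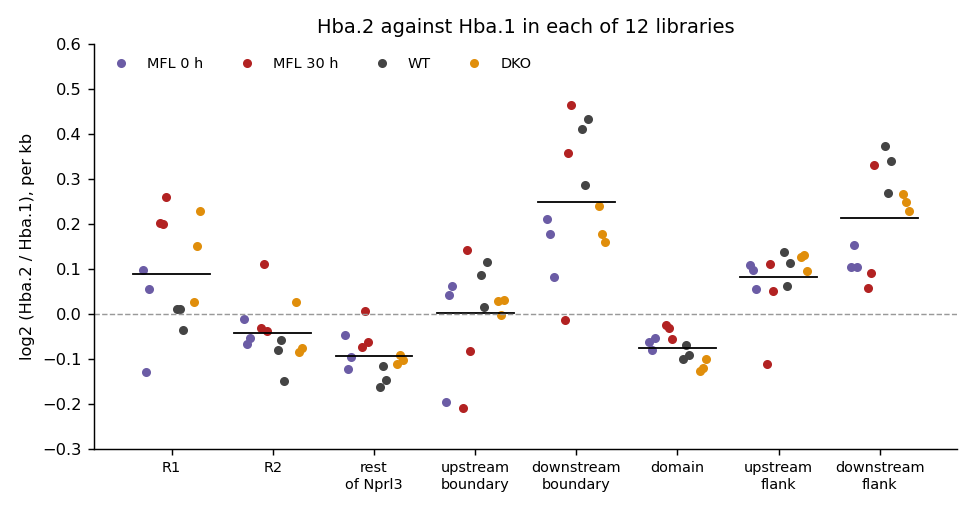
Log2 ratio of Hba.2 to Hba.1 contacts per kb (y axis) in each of 8 windows (x axis), 1 point for each of 12 libraries coloured by group, with the mean as a bar. Points for the domain lie below 0 in 12 of 12 libraries and points for the downstream flank above 0 in 12 of 12, while those for the upstream boundary lie on both sides.

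At the scale of single 2 kb bins the bins with one direction in all libraries lay near the paralogs. Of 533 bins tested, Hba.2 was higher in all 12 libraries in 3 (0.563%) and lower in all 12 in 8 (1.5%). The 3 higher bins were neighbours that lie between the paralogs, chr11:32189000-32190999, chr11:32191000-32192999 and chr11:32193000-32194999, with log2 differences of 0.31, 0.39 and 0.37. The 8 lower bins all lay upstream of Hba-a1 and reached into the end of Nprl3 nearest the globin genes. The lowest, chr11:32179000-32180999, had 2549 ± 648 per 100000 from Hba.1 and 1862 ± 529 from Hba.2 (SD, n = 12), a log2 difference of -0.46 ± 0.08 (SE). Over all 533 bins the median log2 difference was 0.02. By limma with the library as a block none of the 533 bins passed an adjusted p of 0.05 (percent called 0), 44 were under an unadjusted 0.05, and the smallest adjusted p was 0.0609. Count tests used whole reads recovered from the deeper run, which is the NextSeq run alone at 0 h and 30 h. On these, edgeR's quasi-likelihood test called 25 bins (7 higher, 18 lower) and DESeq2 23 (7 higher, 16 lower). These bins, the 11 with one direction in all libraries, were singled out after their values were seen.

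Among the genes of the cluster, the embryonic α-like globin gene Hba-x, which lies upstream of Hba-a1, showed the widest gap. Contacts with Hba-x in WT were 1791 ± 140 per kb from Hba.1 and 1252 ± 189 from Hba.2 (SD, n = 3), and in the DKO 1325 ± 47.2 against 921 ± 19.3. At 0 h they were 1208 ± 11.8 and 972 ± 56.0, and at 30 h 2016 ± 186 and 1760 ± 80.9. Hba.2 was the lower in 12 of 12 libraries, with a mean log2 ratio of -0.39. The θ-like globin gene Hbq1b, which lies between the paralogs, went the other way, with 0.18 and Hba.2 higher in 10 of 12 libraries, as did Hbq1a beyond Hba-a2 with 0.10 and 9 of 12. Of the neighbours upstream, Il9r (interleukin 9 receptor) had 0.16 with 11 of 12, Snrnp25 (a protein of the minor spliceosome) 0.16 with 10 of 12 and Rhbdf1 (an inactive rhomboid protease) 0.08 with 10 of 12, while Mpg (a DNA glycosylase) had -0.02 with 6 of 12. Downstream, Sh3pxd2b and Ubtd2 had 0.14 with 10 of 12 each, and Fbxw11 (an F-box protein) 0.23 with 11 of 12. Fbxw11 was contacted at only 3.46 to 8.88 per kb from Hba.1, so its ratio rests on few reads. The ratios of single genes are descriptions, with no test of each.

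**Figure D4:**
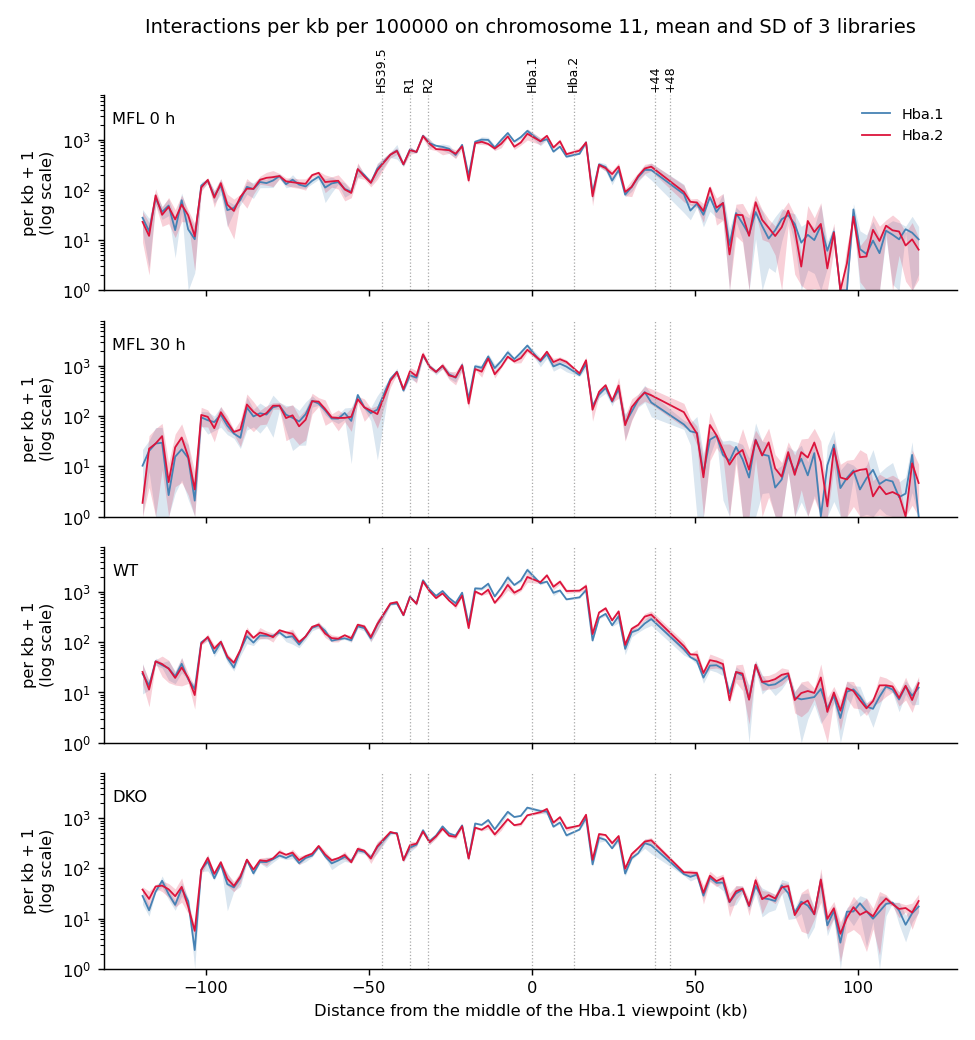
Mean interactions per kb per 100000 on chromosome 11, plus 1, in 2 kb bins (y axis, log scale) against distance from the middle of the Hba.1 viewpoint in kb (x axis) for MFL 0 h, MFL 30 h, WT and DKO, with SD of 3 libraries shaded. Blue is Hba.1, red is Hba.2, and dotted lines mark the named fragments. The lines run together outside the cluster, blue lies above red just upstream of Hba.1, and red lies above blue between the paralogs except in the DKO bin nearest to Hba.1 (1394 from Hba.1 against 1316 per kb). Both are lower at R1 and R2 in the DKO.

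Read against distance instead of position, the paralogs looked unlike each other. At 40 to 80 kb upstream, Hba.2 had 397 ± 75.9 per kb and Hba.1 185 ± 10.6 (SD, n = 12), a log2 ratio of 1.07 with Hba.2 higher in 12 of 12 libraries. This class holds R1 and R2 for Hba.2, while for Hba.1 they fall in the class of 20 to 40 kb. In that nearer class the paralogs were at 732 ± 112 and 755 ± 192, respectively. Downstream the order was turned, with 245 ± 46.4 per kb from Hba.2 and 969 ± 220 from Hba.1 at 5 to 10 kb and 133 ± 18.2 against 221 ± 26.0 at 20 to 40 kb, Hba.2 being lower in 12 of 12 libraries in both classes. At 80 to 160 kb downstream both were low, at 10.0 ± 3.69 from Hba.2 and 8.62 ± 2.82 from Hba.1. The paralogs were thus more alike at the same place than at the same distance, and the part of their shared reads in this was not tested.

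For both paralogs the upstream side, where the enhancers lie, was contacted more than the downstream side at every matched distance and in 12 of 12 libraries. The log2 ratio of upstream to downstream for Hba.1 was 0.60 ± 0.14 (SD) at 5 to 10 kb, 0.75 ± 0.19 at 10 to 20 kb, 1.73 ± 0.53 at 20 to 40 kb and 2.65 ± 0.38 at 40 to 80 kb. For Hba.2, close to the downstream edge of the domain, it was 2.38 ± 0.32, 2.21 ± 0.38, 2.45 ± 0.38 and 4.16 ± 0.69. The side with the enhancers prevailed in the DKO too, where Hba.2 had 573 ± 29.1 per kb upstream and 150 ± 7.75 downstream at 20 to 40 kb (SD, n = 3) and Hba.1 465 ± 11.7 and 253 ± 18.2. The asymmetry was a property of both viewpoints and was present with R1 and R2 deleted, but in this class it was smaller than the mean of the 12 libraries. That mean, the DKO included, was 755 ± 192 upstream and 221 ± 26.0 downstream for Hba.1, and 732 ± 112 and 133 ± 18.2 for Hba.2. For Hba.1 the log2 ratio ran from 0.81 to 2.19 between libraries. The difference of the DKO in this was not tested.

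**Figure D5:**
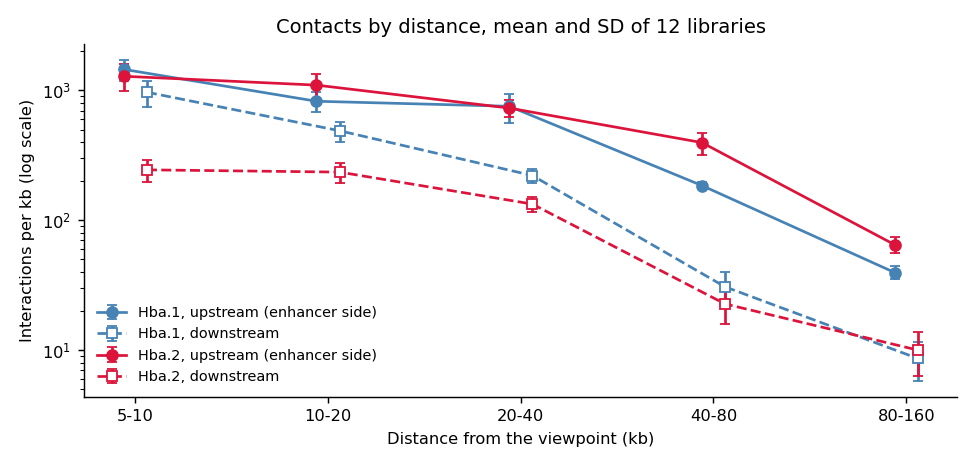
Interactions per kb per 100000 on chromosome 11 (y axis, log scale) by class of distance from the viewpoint in kb (x axis), mean and SD of 12 libraries, for Hba.1 (blue) and Hba.2 (red), upstream (filled circles, solid) and downstream (open squares, dashed). Upstream values exceed downstream ones in each class for both paralogs, and the red solid line lies above the blue one at 40 to 80 kb (397 against 185).

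The next question was whether differentiation altered the contacts of each paralog alike. Between 0 h and 30 h the share of contacts in the domain differed, with 41.6 ± 0.666% at 0 h and 54.8 ± 0.917% at 30 h for Hba.1, and 39.8 ± 0.423% and 53.4 ± 1.51% for Hba.2 (SD, n = 3), log2 changes of 0.40 and 0.42 with no overlap between the groups. R2 was higher by 0.40 and 0.46, again without overlap, while R1 changed by 0.02 from Hba.1 and 0.23 from Hba.2 with overlapping groups. The rest of Nprl3 was higher by 0.16 and 0.21 without overlap, but -0.06 and -0.02 when scaled to the interactions within 500 kb. The upstream flank changed by -0.24 and -0.31 without overlap, whereas the boundaries and the downstream flank overlapped between the times for both paralogs. With 3 against 3 libraries the exact permutation test (two-sided) cannot go below p = 0.1, which was reached by each contrast without overlap named here, and no window could pass 0.05.

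The reads per listed fragment also differed between the times, as given above, and the runs give the values within one type of sequencing. In the NextSeq runs alone the domain was higher at 30 h by 0.43 and 0.45 from Hba.1 and Hba.2, and in the MiSeq runs alone 0.36 and 0.40. R2 was higher by 0.47 and 0.52 in the former and 0.33 and 0.39 in the latter. Direction and size were thus similar in both runs, while the median change over all tested bins was not, at -0.61 and -0.54 in the NextSeq runs, 0.40 and 0.88 in the MiSeq runs and -0.25 and -0.20 with the runs averaged. The part of the reads per fragment in the difference was not tested.

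The difference between paralogs in this change was tested as well. At R1 the log2 ratio of Hba.2 to Hba.1 was 0.01 ± 0.12 at 0 h and 0.22 ± 0.03 at 30 h (SD, n = 3), a difference of 0.21 without overlap (exact permutation test, p = 0.1, the smallest possible, adjusted p = 0.667 over 8 windows). In the NextSeq runs alone this was 0.11 (p = 0.5 by the same exact test) and in the MiSeq runs alone 0.33 (p = 0.1). The other 7 windows overlapped between the times, with differences from -0.07 to 0.11. In 2 kb bins, 21 of 860 bins (2.44%) were higher and 66 (7.67%) lower at 30 h without overlap for Hba.1, and 24 of 957 (2.51%) and 69 (7.21%) for Hba.2. Limma called 0 bins for either paralog (0%), with 56 and 63 at an unadjusted p under 0.05, where edgeR called 8 and 3 and DESeq2 7 and 9. For the difference between paralogs limma, edgeR and DESeq2 each called 0 of 788 bins, with 11 under an unadjusted 0.05 by limma, and 10 bins (1.27%) were higher and 25 (3.17%) lower without overlap.

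In the DKO, the deleted enhancers were first checked from each paralog. The R2 fragment itself held 758, 783 and 788 per 100000 from Hba.1 and 707, 753 and 681 from Hba.2 in WT, and 0, 0 and 10.7 against 0, 0 and 16.3 in the DKO. The R1 fragment held 607, 558 and 615 from Hba.1 and 562, 554 and 565 from Hba.2 in WT, and 121, 125 and 112 against 97.3, 184 and 146 in the DKO. Both paralogs therefore matched the labelled genotype, with the R2 fragment at or near 0 and part of the R1 fragment still read. Values in the R1 and R2 windows of the DKO come from what is left beside the deletions and are not a loss of contact with an intact site.

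Around the deletions contacts of both paralogs were lower by similar amounts, though the paralogs share reads and are not 2 independent results. The rest of Nprl3 stood at 637 ± 2.84 per kb in WT and 422 ± 9.15 in the DKO for Hba.1, and at 577 ± 9.34 and 393 ± 11.5 for Hba.2 (SD, n = 3), log2 changes of -0.59 and -0.55. The domain took 56.3 ± 2.45% in WT and 37.1 ± 1.62% in the DKO for Hba.1, and 53.0 ± 2.56% and 34.3 ± 1.65% for Hba.2, changes of -0.60 and -0.63. The R2 window changed by -1.85 and -1.80 and the R1 window by -1.79 and -1.65. None of these groups overlapped, and each reached p = 0.1, the smallest the exact permutation test allows with 3 against 3. Over the rest of Nprl3 the R2 window stood at 0.964 ± 0.0866 fold from Hba.1 and 1.00 ± 0.103 from Hba.2, and the R1 window at 0.490 ± 0.0542 and 0.579 ± 0.0713. These values are divided by the full length of each window, 2.973 kb at R2 and 2.518 kb at R1, deleted bases included. They and the changes of these windows therefore include the deletion itself. Whether the sequence left stood above the gene around it was not measured.

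Outside the domain the direction was also shared. The upstream flank was higher in the DKO by 0.20 and 0.21 on the log2 scale from Hba.1 and Hba.2, and the downstream flank by 0.29 and 0.21, without overlap. The upstream boundary changed by -0.04 and -0.09 and the downstream boundary by 0.29 and 0.11, with overlap between WT and DKO for both paralogs. Scaled to the interactions within 500 kb, the upstream boundary was 0.24 and 0.18 higher in the DKO instead, so its direction depends on the scaling. Over all tested bins the median log2 change was 0.62 for Hba.1 and 0.64 for Hba.2, the domain's share having gone down in a fixed total, and changes outside the domain are to be read against that shift.

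The test of the difference between paralogs gave values of 0.2 or less on the log2 scale. At the downstream boundary the difference was -0.19, the ratio of Hba.2 to Hba.1 being 0.38 ± 0.08 in WT and 0.19 ± 0.04 in the DKO. The downstream flank ratio was 0.33 ± 0.05 in WT and 0.25 ± 0.02 in the DKO, and the domain ratio -0.09 ± 0.02 and -0.12 ± 0.01. At R1 the ratio was -0.01 ± 0.03 in WT and 0.14 ± 0.10 in the DKO. These windows and the rest of Nprl3 (a difference of 0.04) did not overlap between genotypes, all at p = 0.1 by the exact permutation test and an adjusted p of 0.16, so none passed. The remaining windows, R2, the upstream boundary and the upstream flank, overlapped.

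In 2 kb bins, limma called 7 of 507 bins for Hba.1, 4 higher in the DKO (0.789%) and 3 lower (0.592%), and 0 of 507 for Hba.2 (0%), with 141 and 125 bins under an unadjusted p of 0.05. The lower bins for Hba.1 were in Nprl3. The bin chr11:32151000-32152999, which holds R2, went from 2140 ± 92.3 to 652 ± 94.4 per 100000 (SD, n = 3), a log2 change of -1.72 with an adjusted p of 0.0416 by limma. From Hba.2 the same bin went from 1968 ± 17.8 to 625 ± 59.4, a change of -1.66 with an adjusted p of 0.0695. The change was thus alike and only its side of the threshold differed. The other lower bins were chr11:32149000-32150999 at -1.58 from Hba.1 and -1.59 from Hba.2, and chr11:32145000-32146999, which holds R1, at -1.68 from Hba.1. The bins of R1 and R2 hold sequence deleted in the DKO, so a decrease in them was given by the genotype. The R2 fragment alone held 776 ± 16.1 per 100000 from Hba.1 in WT and 3.56 ± 6.17 in the DKO (SD, n = 3).

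The 3 higher bins with the smallest adjusted p were in Nsg2 (2.34), in Ubtd2 (1.94) and in Ccdc104 (4.30), where the WT libraries held no read from Hba.1 and the fitted change is no bound. In Ubtd2 the bin chr11:32365000-32366999 went from 12.5 ± 1.09 to 50.6 ± 2.58 per 100000. On recovered reads the split between directions was different, edgeR calling 9 higher and 38 lower bins for Hba.1 and 3 and 35 for Hba.2, and DESeq2 0 and 36 for Hba.1 and 0 and 35 for Hba.2. Without overlap, 152 bins (30.0%) were higher and 33 (6.51%) lower in the DKO from Hba.1, and 149 (29.4%) and 32 (6.31%) from Hba.2. For the difference between paralogs limma, edgeR and DESeq2 called 0 of 499 bins each, 21 lay under an unadjusted 0.05 by limma, and 20 bins (4.01%) were higher and 34 (6.81%) lower without overlap. Leaving out any one replicate left 0 calls for Hba.1.

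The last question was whether blocking elongation altered the contacts of either paralog. With 1 library a condition there is no test, and 95% Wilson intervals cover counting error only. The domain took 46.3% (45.0 to 47.7) of Hba.1 interactions in untreated cells, 48.3% (46.6 to 50.0) with DMSO and 44.3% (43.2 to 45.4) with DRB. For Hba.2 it took 44.9% (43.4 to 46.4), 46.7% (44.9 to 48.6) and 42.6%. The order was the same for both paralogs, and Hba.2 lay below Hba.1 in each library. The DRB interval of Hba.1 overlapped that of untreated cells and not that of DMSO. Over the 3 replicated WT libraries at 30 h the same share spanned 53.6 to 58.5% for Hba.1, a wider spread than that between these conditions. Over the MFL 30 h libraries it spanned 53.7 to 55.3%, a narrower one. The replicated groups therefore do not settle whether the conditions differed by more than replicates do. According to the paper, the DRB experiment also used a low-input protocol, so its shares and those of the replicated groups differ in method.

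For R2 the window and the fragment are given side by side, each from 1 library a condition. The R2 window stood above the rest of Nprl3 by 1.85 fold (1.56 to 2.20) from Hba.1 in untreated cells, 2.02 (1.65 to 2.48) with DMSO and 1.80 (1.55 to 2.08) with DRB, with overlapping intervals. From Hba.2 the values were 1.67 (1.37 to 2.04), 1.88 (1.49 to 2.37) and 2.03. The R2 fragment itself was lowest with DRB, at 634, 784 and 424 per 100000 from Hba.1 in untreated, DMSO and DRB cells and 471, 614 and 389 from Hba.2. Over the rest of Nprl3 the fragment stood at 1.43, 1.72 and 1.03 fold from Hba.1 and 1.06, 1.34 and 0.949 from Hba.2. No interval was computed for the fragment. It rests on only a part of the 155, 115 and 215 reads that the R2 window held from Hba.1. Its order between the conditions is therefore not established. The R1 window was at 1.35 fold (1.09 to 1.67), 0.975 (0.723 to 1.31) and 1.02 (0.830 to 1.24) from Hba.1, and at 1.32 (1.04 to 1.67), 0.927 (0.659 to 1.30) and 0.824 from Hba.2. The R1 window was thus lower with DMSO as well as with DRB than in untreated cells, on 96, 47 and 103 reads from Hba.1. Between the paralogs, the DRB library was the only one of the 3 in which Hba.2 exceeded Hba.1 at R2 (1013 against 902 per kb) and the one with the lowest Hba.2 value at R1 (412 against 510.0). In the other libraries R2 was at 1001 from Hba.1 and 903 from Hba.2 (untreated) and 1124 and 1045 (DMSO). The downstream flank was higher from Hba.2 in all 3, at 101 against 91.8, 110 against 93.6 and 116 against 99.7 per kb, the direction seen in the 12 replicated libraries. The downstream boundary was lower from Hba.2 in untreated cells (128 against 129.7) and with DMSO (177 against 185) and higher with DRB (180.1 against 168). Over the rest of Nprl3 the paralogs were at 541 and 540.0 per kb from Hba.1 and Hba.2 in untreated cells, 556 and 558 with DMSO and 502 and 500.0 with DRB, without the gap of the replicated libraries.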

How the data were processed

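NG Capture-C libraries were made by DpnII digestion, ligation, sonication and double oligonucleotide capture. The paper states that the experiments after DRB treatment followed a low-input form of the protocol, because material was limited. According to the submitters' processing notes, reads were processed with Trim Galore and Bowtie on mm9, and how reads matching both paralogs were assigned is not given in the sources used here. The deposited values are reads per 100000 reporter reads of a viewpoint (a form of RPM scaled by the authors) for each fragment. Dividing by the value of 1 read gave whole reads within 0.05 of a read in all columns of the paralogs except Hba.2 with DRB. These values were rescaled to 100000 interactions on chromosome 11, fragments within 1 kb of the viewpoints on chromosome 11 of these samples were left out, and NextSeq and MiSeq runs of a library were averaged with equal weight. Over 2 kb bins with at least 10 reads in both runs together, chi-square per degree of freedom between the runs of a replicate was 0.432 to 0.675, below sampling noise. Sparser bins were not covered by this check.

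Windows were compared by exact permutation tests over all arrangements (NumPy 2.4.6), and Spearman's rho came from SciPy 1.17.1. For 2 kb bins with a mean of at least 10 the test was limma 3.58.1 (R 4.3.3) on log2 (value + 1). Benjamini-Hochberg adjustment was used for windows and bins. The alternatives for bins were edgeR 4.0.16 and DESeq2 1.42.0 on reads recovered from the deeper run. P-values measure the spread between these libraries. The bin tests were tested on simulated data. Named genes were fixed in a list, and named bins were the 3 of smallest adjusted p in each direction among those past 0.05, or, between the paralogs, where none passed, bins with one direction in all 12 libraries, chosen after their values were seen. The members, lists and windows were chosen with earlier results of these data known. Alternatives leaving out WT replicate 2, leaving out whole groups in the bins, and limiting Nprl3 to the domain were added after seeing the data. Combined columns were not used. Sequences came from mm9 and RefSeq tables (Biopython 1.88). No protein sequences were used here.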

Additional observations from a re-analysis of the deposited data

Results flagged for a closer look

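At Mpg, the DNA glycosylase gene inside Nprl3, the log2 ratio of Hba.2 to Hba.1 was -0.202 at MFL 30 h and 0.129 in WT, every library of one group lying on the opposite side of 0 from every library of the other. The difference was not tested. WT and MFL 30 h are both wild-type cells at 30 h from separate experiments.

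The β-globin viewpoints, which enter no comparison here, also shared listings on other chromosomes. The median percent of Hbb.b1 fragments also listed under Hbb.b2 was 45.6 in MFL 0 h MiSeq, 28.2 in MFL 0 h NextSeq, 36.8 in MFL 30 h MiSeq, 66.9 in MFL 30 h NextSeq, 35.6 in untreated, 30.8 in DMSO and 35.1 in DRB samples. In WT and DKO samples it was 0.678 and 0.918, although Hba.1 and Hba.2 shared 50.8 to 56.6% in the same samples. The former values stood above the 0 to 1.89% of Hba.1 with HS39.5, and those of WT and DKO lay within that range.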

How the results depend on the processing

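The lower contacts of Hba.2 with the domain and the rest of Nprl3 and its higher contacts with the downstream boundary and flank kept direction and significance in every setting tried, with adjusted p up to 0.0312. At R1 and R2 they did not. The R2 ratio was -0.0271 with 5 kb left out around viewpoints, -0.0283 scaled within 500 kb, -0.041 as deposited, -0.0134 without the duplicated interval, -0.0391 in NextSeq and -0.0475 in MiSeq runs, -0.0427 without MFL 0 h, -0.0255 without WT, -0.0424 without DKO libraries and -0.0418 without WT replicate 2, and -0.0524 to -0.0252 with 1 replicate number left out. R1 was 0.063 in NextSeq runs, 0.1592 for the enhancer fragment alone, 0.0457 without MFL 30 h, 0.0742 without DKO libraries and 0.0709 to 0.1051 without 1 replicate number. All of these missed the threshold except some of the replicate numbers. The upstream flank missed it at 0.0694 without DKO libraries and within 0.072 to 0.0896 without 1 replicate number. The upstream boundary turned to -0.0195 in MiSeq runs, -0.0211 without WT, -0.003 without DKO libraries and spanned -0.0209 to 0.0397 without 1 replicate number. The cause was not tested.

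Among the changes from 0 h to 30 h, small ones turned. Scaled within 500 kb, Hba.1 gave -0.1987 at R1, -0.0601 over the rest of Nprl3, -0.1628 at the downstream boundary and -0.1671 in the downstream flank, and Hba.2 gave -0.0202, -0.0544 and -0.1326 in the last 3. As deposited, Hba.1 gave -0.0712 at R1, -0.0287 at the downstream boundary and -0.0335 in the downstream flank. Hba.1 at R1 was -0.1288 in MiSeq runs and -0.1214 for the fragment alone. The upstream boundary was 0.0842 and 0.0806 from Hba.1 and Hba.2 without the duplicated interval, 0.0165 from Hba.2 in NextSeq and 0.0022 from Hba.1 in MiSeq runs. Leaving out 1 replicate number gave -0.0209 to 0.0933 at R1 for Hba.1, -0.1236 to 0.067 and -0.2018 to 0.0837 at the upstream boundary for Hba.1 and Hba.2, -0.194 to 0.2321 at the downstream boundary for Hba.1, and -0.0921 to 0.1676 and -0.0095 to 0.1812 in the downstream flank. The upstream boundary in DKO against WT was 0.2441 and 0.1772 within 500 kb, 0.0099 from Hba.1 as deposited, and -0.0868 to 0.0026 from Hba.1 without 1 replicate number. Differences between paralogs that turned were, for DKO against WT, the upstream flank (-0.012 with 5 kb left out, -0.0264 without the duplicated interval, -0.015 to 0.0288 without 1 replicate number) and the rest of Nprl3 (-0.0001 without the duplicated interval). For 30 h against 0 h they were the upstream boundary (0.0333 in NextSeq runs) and, without 1 replicate number, R2 (-0.0017 to 0.097), the upstream flank (-0.1134 to 0.0041), the upstream boundary (-0.0782 to 0.0443), the downstream boundary (-0.0225 to 0.2822) and the downstream flank (-0.0543 to 0.0908).

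Counts of called bins depended on the test and the filter. Between paralogs there were 12 as deposited, 1 in NextSeq runs, 8 with a pseudocount of 10, 1 with no filter, 17 with a mean of at least 30, 25 by edgeR and 23 by DESeq2, against 0. For 30 h against 0 h, Hba.1 had 6 with no filter, 8 by edgeR and 7 by DESeq2, and Hba.2 had 6 as deposited, 9 with no filter, 1 with a mean of at least 30, 3 by edgeR and 9 by DESeq2. For DKO against WT, Hba.1 had 0 with 5 kb left out, 11 within 500 kb, 0 without the duplicated interval, 0 in bins of 4 kb, 11 with a pseudocount of 10, 2 with no filter, 22 with a mean of at least 30, 47 by edgeR, 36 by DESeq2 and 0 without any 1 replicate number, against 7. Hba.2 had 2 within 500 kb, 18 as deposited, 1 in bins of 4 kb, 8 with a pseudocount of 10, 6 with no filter, 32 with a mean of at least 30, 38 by edgeR and 35 by DESeq2, against 0.

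Same-numbered replicates did not deviate together (correlations of -0.064 to 0.139 over 533 bins), so the numbers were not taken to pair the samples. With the replicate block the calls for Hba.1 in DKO against WT went from 7 to 0, and in windows 3 pairs allow no exact p below 0.25.

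In the single libraries the domain share was 37.16 and 33.96% (untreated, Hba.1 and Hba.2), 38.33 and 36.41% (DMSO) and 34.85 and 32.35% (DRB) with 5 kb left out, and 27.53 and 26.76%, 29.3 and 27.78%, and 27.54 and 26.42% as deposited. For Hba.2 with DRB, log2 R1 and R2 over the rest of Nprl3 were -0.3677 and 0.9318 with 5 kb left out. For the enhancer fragment alone the log2 ratios to the rest of Nprl3 at R1 and R2 were -0.1373 and 0.5142 (untreated, Hba.1), -0.1304 and 0.0881 (untreated, Hba.2), -0.6242 at R1 (DMSO, Hba.1), -0.612 and 0.4264 (DMSO, Hba.2), -0.7426 and 0.0421 (DRB, Hba.1) and -0.9905 and -0.0761 (DRB, Hba.2). With 5 kb left out, log2 upstream over downstream was 1.109 for Hba.1 at 10 to 20 kb, and 1.67 and 3.442 for Hba.2 at 5 to 10 and 20 to 40 kb.

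Depth limits the bins. The shallowest replicated library held 6910 reads of Hba.2 in its NextSeq and 2287 in its MiSeq run, and values per bin far from the cluster rest on few reads. Reads shared between the paralogs' columns limit every ratio of them, and PCR duplicates are not marked by molecular identifiers.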
